A study of Arabidopsis thaliana with 11 samples.

Results

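DIN10 (AT5G20250), SEN1 (AT4G35770), DIN2 (AT3G60140) and AKINBETA1 (AT5G21170) are 4 Arabidopsis genes whose transcripts are known to accumulate in darkness or when sugar runs short. They were chosen with earlier results of these data known. By their locus codes all 4 were found, each on 1 probe set of the ATH1 array, among the 19525 features tested. Newly made RNA was captured with 4-thiouracil (4tU), a uracil analog that cells build into the RNA they make while it is present, from Col-0 root protoplasts of 10-day-old plants. In 4tU-bZIP1 (6 arrays) the cells carried 35S::GR::bZIP1, which the methods place in the vector pBeaconRFP, and in 4tU-EV (5 arrays) they carried the empty vector pJD385_35S::GR. The titles number the arrays as biological replicates.

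All cells of both groups received 20 mM KNO3 with 20 mM NH4NO3, for 1 h 40 min by the sample labels and for 2 h by the study's methods. They were also treated with 35 µM cycloheximide, which blocks translation, for 20 min and with 10 µM dexamethasone for 5 h. The label was 1.5 mM 4tU, added with uracil at 0.2 mM for 20 min. The methods state that a red fluorescent protein was used to sort 30000 transfected protoplasts for each sample. The 35S promoter is active in most plant cells, so the fusion was not limited to cells that normally make bZIP1, and GR, a steroid receptor domain, holds the fused factor outside the nucleus until dexamethasone is given. No group lacked nitrogen, cycloheximide or dexamethasone, and no sugar or light treatment is named for either group. By the methods, the cells were kept overnight in a wash solution that contained glucose. The groups differ in bZIP1 and in the name of the vector, and the parts of these in a difference cannot be told apart. The cells are wall-less and transfected, which limits them as a model of an intact root. Only 1 of 23 markers of root layers and green shoot cells listed for a check of the tissue could be read under a gene name, so the labelled tissue was not checked here.

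When light or sugar is withheld, plant cells slow growth and turn to stored carbohydrate, protein and lipid as fuel. The kinase SnRK1, a relative of the yeast SNF1 and animal AMPK kinases, is switched on under such shortage, and bZIP factors of the S1 group, to which bZIP1 belongs, act in the same response. The 4 genes stand at different points of it. AKINBETA1 encodes a regulatory beta subunit of SnRK1, which helps to place the kinase in the cell and to choose its substrates. DIN10 and DIN2, named as dark-inducible genes, encode a member of the raffinose synthase family and the family 1 beta-glucosidase BGLU30, an enzyme class that cuts glucose from glycosides. SEN1 encodes a small protein with a rhodanese (sulfurtransferase-like) domain and is a long-used marker of dark-treated and aging leaves.

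DIN10 was higher in 4tU-bZIP1 by 5.21-fold and passed the test across all features, and SEN1 and DIN2, at 5.01-fold and 1.75-fold, did not pass it although neither group's arrays overlapped the other's for either gene. AKINBETA1 had 1.49-fold the 4tU-EV level with overlapping groups, and its difference could not be told from 0. Every difference is the mean log2 intensity of 4tU-bZIP1 minus that of 4tU-EV, fitted with limma. A feature was called where the Benjamini-Hochberg adjusted p over the 19525 features was under 0.1, the FDR of 10% that the methods use. The methods took genes passing either a 1-way test or a rank product, and filtered them for effects of protoplasting and cycloheximide. The rank product was not run here, so a gene without a limma call has not thereby failed the study's own criterion. By the limma rule 1 of the 4 genes was called higher, against 0.164% of all features, and 0 were called lower, against 0.0205%. The groups did not overlap for 3 of the 4, with 4tU-bZIP1 higher on every array, against 0.405% of all features that were apart in this direction and 0.451% in the other. All 4 differences were above 0, against 51.6% of all features. DIN10, SEN1 and DIN2 are on the list of induced genes that the study chose on these same arrays, and their probe sets are named here through that list, so these shares are no independent evidence of their direction. AKINBETA1 is named by the array platform and is not on the study's lists of induced and repressed genes. In bulk samples such as these, fewer cells that make a transcript and less of it per cell cannot be told apart.

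**Figure D1:**
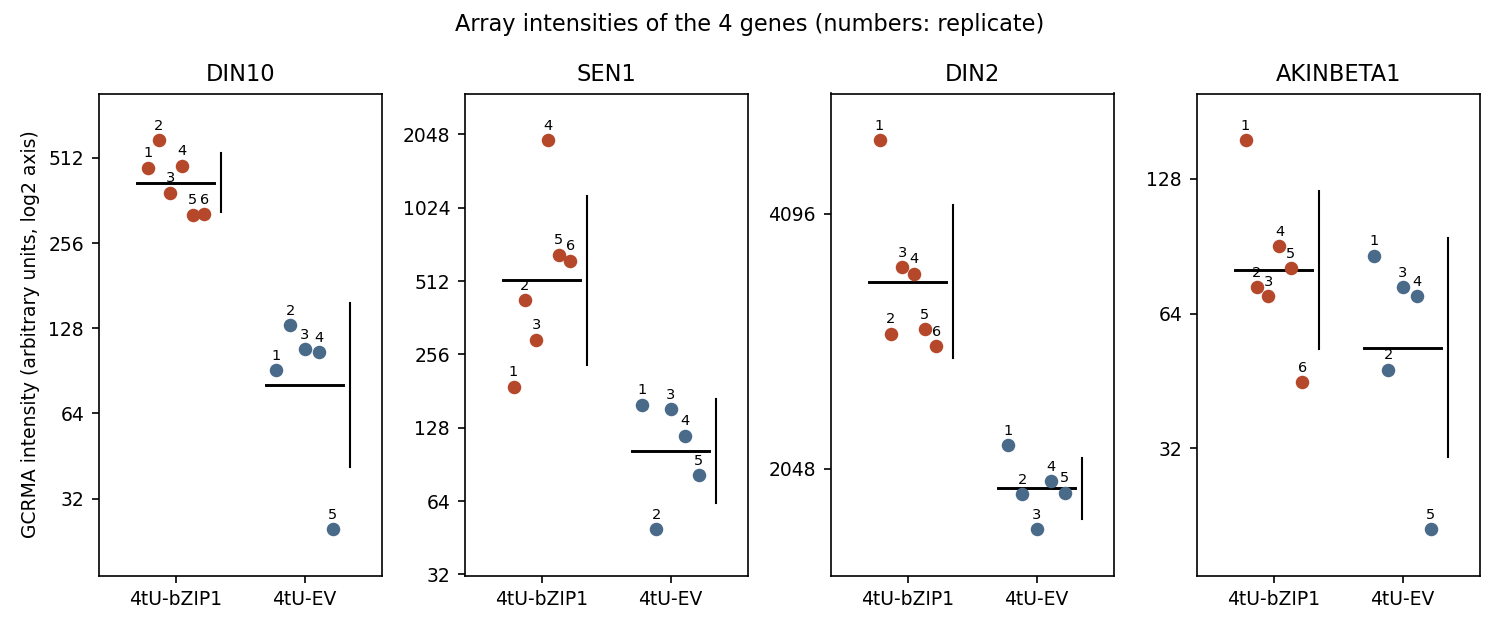
GCRMA intensity of each gene on a log2 axis, with 4tU-bZIP1 (red, 6 arrays) left of 4tU-EV (blue, 5 arrays). Each point is an array with its replicate number, horizontal lines are means of log2 values and vertical lines are ± 1 SD of the log2 values. The 2 groups of points are apart for DIN10, SEN1 and DIN2 and overlap for AKINBETA1, and the vertical scale differs between panels.

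The DIN10 intensity was 473, 592, 385, 480.3, 323 and 324 in 4tU-bZIP1 replicates 1 to 6. In 4tU-EV replicates 1 to 5 it was 90.8, 131, 108, 105 and 25.0. All 6 arrays of 4tU-bZIP1 thus lay above all 5 of 4tU-EV, and the spread within 4tU-EV came mostly from replicate 5. The means were 429.5 ± 105 in 4tU-bZIP1 (SD, n = 6) and 92.0 ± 40.1 in 4tU-EV (SD, n = 5). The log2 difference was 2.38 with a standard error of 0.40 and a 95% confidence interval of 1.48 to 3.28, which as a fold is 2.79 to 9.74. The limma adjusted p was 0.0966, the highest among the 36 features called in either direction. An exact two-sided permutation test over the 462 divisions of the arrays into groups of 6 and 5 gave p = 0.0022, the smallest it can give. By size the difference ranked 11 from the highest of the 19525 features.

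The call of DIN10 rested on its margin. With 1 array left out at a time it held in 1 of 11 fits, the one without 4tU-EV replicate 5, where the difference was 1.96 and the limma adjusted p 0.0086. In the other fits the difference was 2.28 to 2.56 and the limma adjusted p at most 0.252. The difference was above 0 in all 11, which the lack of overlap between the groups fixes in advance.

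SEN1 had the widest spread of the 4 genes in 4tU-bZIP1, with an SD of 1.16 on the log2 scale. Its intensity was 188, 428, 294, 1940.2, 657 and 620.0 in 4tU-bZIP1 replicates 1 to 6. In 4tU-EV replicates 1 to 5 it was 159, 49.1, 152, 119 and 81.8. Replicate 4 of 4tU-bZIP1 was far above the rest of its group, and replicate 1, the lowest, was close to the highest 4tU-EV array. The means were 688 ± 639.7 in 4tU-bZIP1 (SD, n = 6) and 112 ± 46.8 in 4tU-EV (SD, n = 5). The log2 difference was 2.32 with a standard error of 0.57 and a 95% confidence interval of 1.04 to 3.61, or 2.06-fold to 12.2-fold. This is nearly the size of the DIN10 difference, and the SEN1 standard error was the larger. The limma adjusted p was 0.476, and the exact two-sided permutation test gave p = 0.0043. SEN1 was called in 0 of the 11 fits with an array left out, in which the difference was 1.94, without 4tU-bZIP1 replicate 4, to 2.61, without 4tU-bZIP1 replicate 1.

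DIN2 showed the opposite pattern, a small difference with little scatter. Its intensity was 5003, 2956, 3544, 3481, 2994 and 2856 in 4tU-bZIP1 replicates 1 to 6. In 4tU-EV replicates 1 to 5 it was 2185, 1910.4, 1739, 1979 and 1918. All 6 arrays of 4tU-bZIP1 were above all 5 of 4tU-EV, and 5 of the 6 lay between 2856 and 3544 while replicate 1 stood above them. The means were 3472 ± 803 in 4tU-bZIP1 (SD, n = 6) and 1946 ± 161 in 4tU-EV (SD, n = 5). The SD in 4tU-EV was 0.12 on the log2 scale, against 0.96 for DIN10, 0.71 for SEN1 and 0.81 for AKINBETA1.

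The DIN2 log2 difference was 0.81 with a standard error of 0.14 and a 95% confidence interval of 0.50 to 1.12, or 1.41-fold to 2.18-fold. The limma adjusted p of 0.101 just missed the threshold, and the exact two-sided permutation test gave p = 0.0022, the smallest possible. By size DIN2 ranked 421 among the 19525 features, and by unadjusted p it ranked 37, 3 places behind DIN10. The 2 genes thus lie on either side of the threshold with nearly the same p. Without 4tU-bZIP1 replicate 1, DIN2 passed with a difference of 0.70 and a limma adjusted p of 0.0209, and it passed in none of the other 10 fits with 1 array left out.

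AKINBETA1, the SnRK1 subunit, had an intensity of 156, 73.2, 69.9, 90.5, 80.8 and 44.9 in 4tU-bZIP1 replicates 1 to 6. In 4tU-EV replicates 1 to 5 it was 86.3, 48.0, 73.3, 69.9 and 21.1. Of the 4tU-bZIP1 arrays, 2 were above every 4tU-EV array, and of the 4tU-EV arrays, 1 was below every 4tU-bZIP1 array. The other arrays of both groups shared 1 range. The means were 85.9 ± 37.6 in 4tU-bZIP1 (SD, n = 6) and 59.7 ± 25.6 in 4tU-EV (SD, n = 5). The log2 difference was 0.57 with a standard error of 0.41, and its 95% confidence interval of -0.33 to 1.48 spans values from 0.79-fold to 2.79-fold. The limma adjusted p was 0.847 and the exact two-sided permutation p was 0.221. Of all features, 4.9% had a difference at least as large.

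The AKINBETA1 difference leaned on a single array in each group. It was 0.24 without 4tU-EV replicate 5, its lowest array, and 0.38 without 4tU-bZIP1 replicate 1, its highest. With both left out it was 0.04.

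**Figure D2:**
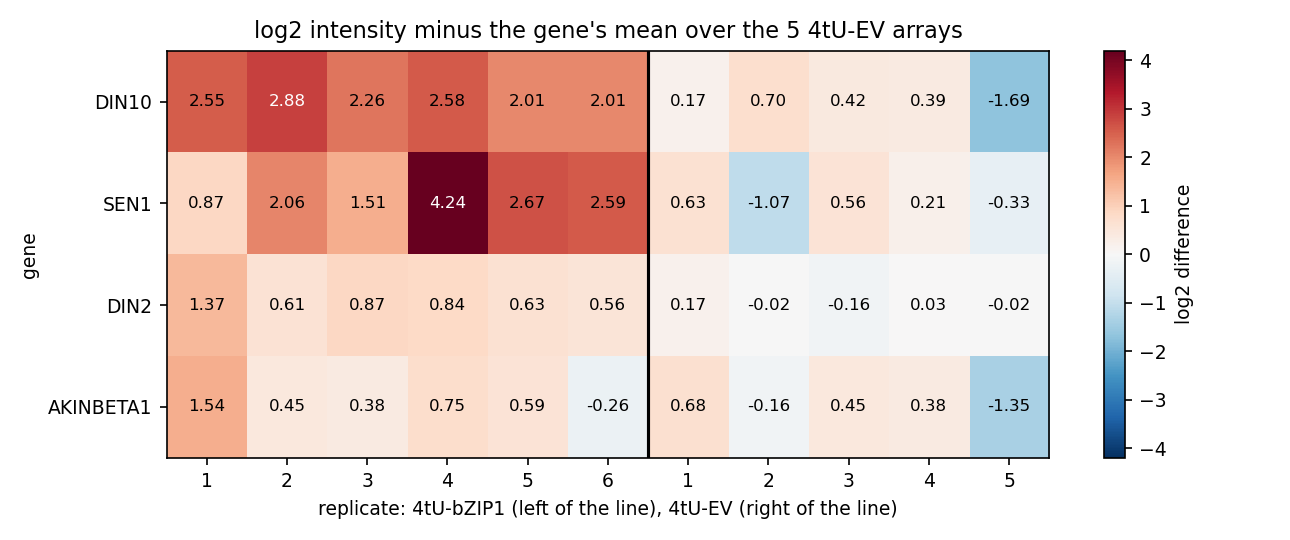
log2 intensity of each gene (rows) on each array (columns) minus the gene's mean over the 5 4tU-EV arrays, in red where higher and in blue where lower, with 4tU-bZIP1 left of the line and 4tU-EV right of it. DIN10, SEN1 and DIN2 are above 0 on all 6 arrays of 4tU-bZIP1, SEN1 reaches 4.24 on replicate 4, and 4tU-EV replicate 5 is at -1.69 for DIN10 and -1.35 for AKINBETA1.

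Of the 11 arrays, 2 held the highest or the lowest value over all 11 for more than 1 of the 4 genes. The other extremes over all 11 fell on different arrays. Within the groups further arrays held several extremes. The array of 4tU-EV replicate 1 was highest of its group for SEN1, DIN2 and AKINBETA1, and 4tU-bZIP1 replicate 6 was lowest of its group for DIN2 and AKINBETA1. The array of 4tU-bZIP1 replicate 1 gave the highest DIN2 and AKINBETA1 values and the lowest SEN1 value of its group, while DIN10 ranked 3 of 6 there. This array also stood apart over all probe sets, with a median correlation to the other arrays of 0.878, against 0.943 to 0.965 for the others, and 6643 probe sets at an intensity of at least 32, against 7228 to 7594. The array of 4tU-EV replicate 5 gave the lowest DIN10 and AKINBETA1 values of all 11 arrays, and its median correlation of 0.943 was the next lowest. SEN1 and DIN2 were within the range of the other 4tU-EV arrays on it. The part these arrays play in each difference was measured by leaving them out. With both out, DIN10 differed by 1.92 (limma adjusted p = 0.0264) and DIN2 by 0.70 (limma adjusted p = 0.0618), and both were called. SEN1 then differed by 2.53 and AKINBETA1 by 0.04, and neither was called. These arrays hold extremes of DIN10 and DIN2 themselves, and leaving them out narrows the spread within the groups. The calls of DIN10 and DIN2 without them are therefore no independent evidence of a difference.

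**Figure D3:**
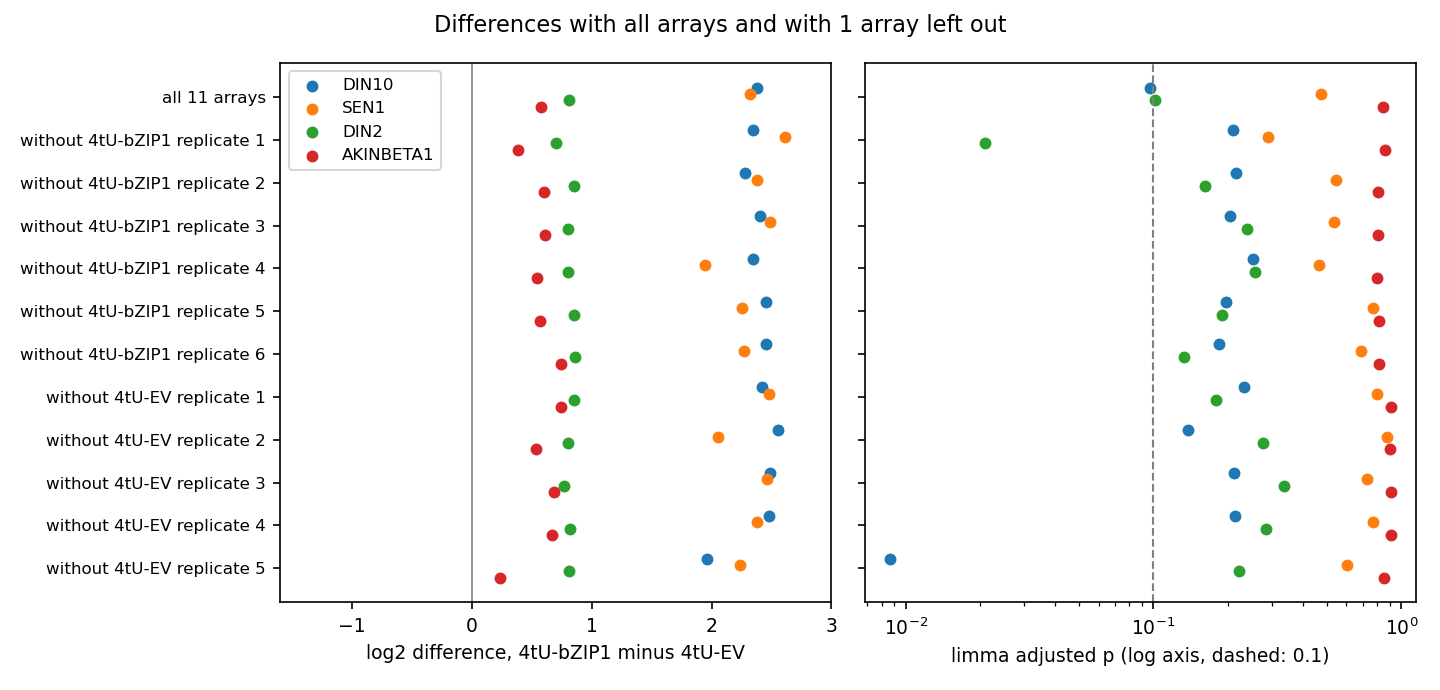
log2 difference (left panel, 4tU-bZIP1 minus 4tU-EV) and limma adjusted p (right panel, log axis, threshold of 0.1 dashed) of the 4 genes with all 11 arrays and with each array left out in turn. Every difference is above 0, which for DIN10, SEN1 and DIN2 follows from groups that do not overlap. DIN10 passes with all arrays and without 4tU-EV replicate 5, DIN2 passes without 4tU-bZIP1 replicate 1, and SEN1 and AKINBETA1 pass in no fit.

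How the 4 genes varied within the groups was described by correlating their deviations from the group means over the 11 arrays, which share the pull-down, the amplification and the array type. DIN10 and AKINBETA1 had Pearson's r = 0.71, and DIN2 and AKINBETA1 had r = 0.57. The pairs SEN1 with DIN2 (r = -0.39), DIN10 with DIN2 (r = 0.10), SEN1 with AKINBETA1 (r = 0.05) and DIN10 with SEN1 (r = 0.02) had lower values. Each r over 11 arrays can rest on the extreme arrays named above.

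The genes whose log2 values followed each of the 4 most closely over the 11 arrays were taken from 3857 named genes with a mean log2 of at least 5. This ranking includes the difference between the groups. For DIN10 they were AT1G68440 (r = 0.97), GDH2 (r = 0.97), a glutamate dehydrogenase subunit, SDP1 (r = 0.96), a lipase that opens stored oil, BCAT-2 (r = 0.96), a branched-chain amino acid transaminase, and AT1G80380 (r = 0.96). For SEN1 they were ERD5 (r = 0.90), a proline dehydrogenase, AT2G30600 (r = 0.87), AT2G32150 (r = 0.86), SAMDC (r = 0.85), which encodes an S-adenosylmethionine decarboxylase, and AT5G64120 (r = 0.85). For DIN2 the closest was another beta-glucosidase of its own family, BGLU46 (r = 0.95), ahead of AT5G08350 (r = 0.95), AT4G33980 (r = 0.93), BCAT-2 (r = 0.92) and AT4G18340 (r = 0.91). BCAT-2 was the gene shared between the leading genes of DIN10 and DIN2. GDH2, BCAT-2 and ERD5 are named only through the study's list of induced genes. AT1G68440, AT1G80380, AT2G30600, SAMDC, AT5G08350 and AT4G18340 are on that list too. The study chose it on these same arrays, so places in this ranking are no independent evidence of likeness.

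For AKINBETA1 the leading genes were AT1G30640 (r = 0.97), ATGRIP (r = 0.93), AT2G26800 (r = 0.93), AT3G60200 (r = 0.91) and AT2G34750 (r = 0.91), and each of these 5 had a limma adjusted p of 0.847. Many features share this adjusted value although their unadjusted limma p differs, as with 0.020 for AT4G16360 and 0.32 for EXO, both described below. The shared value therefore marks no likeness between genes. ATGRIP is on the study's list of induced genes. With the group means taken out, the first genes were AT1G30820 for DIN10 (r = 0.96), AT2G23120 for SEN1 (r = 0.92), AT1G07520 for DIN2 (r = 0.94) and AT1G30640 again for AKINBETA1 (r = 0.96). BGLU46 stayed among the first 5 of DIN2 (r = 0.91) and SDP1 among the first 5 of DIN10 (r = 0.93). Like DIN2, BGLU46 was highest on 4tU-bZIP1 replicate 1, at 8981 against 5827 to 6951 on the other arrays of that group. The r of BGLU46 with DIN2 can therefore rest on that array.

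Beside the 4 genes, 8 lists of related genes were examined. They hold 105 genes, of which 34 could be read under a gene name, since many probe sets carry no name in the tables used, and 9 of the 34 were under an intensity of 16 on every array. No gene of these lists passed the threshold. At an unadjusted limma p under 0.05, 3 had a difference above 0 and 1 had one below 0, against 1.51% and 3.23% of all features. Of the 3, BCE2 and NAP are named only through the study's list of induced genes, so this share is no independent evidence. Among the 32 genes named by the platform there was 1 in each direction, BGLU46 above 0 and AT4G16360 below 0.

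Of 15 other genes known to respond to darkness or low sugar, 3 were measured. Their median log2 difference was 0.68, the value of ATL8, against 0.0014 over all features. BCE2 is among the 3 only through the study's list of induced genes, so the median is no independent evidence. BCE2, also called DIN3, encodes a subunit of the branched-chain keto acid dehydrogenase, and like 3 of the 4 genes above its probe set is named through the study's own list. It had 519 ± 173 in 4tU-bZIP1 and 179 ± 53.2 in 4tU-EV (SD, n = 6 and 5), with no overlap between the groups. Its log2 difference was 1.52 (limma adjusted p = 0.255). AT3G15450, also called SEN5, had 1259 ± 186 in 4tU-bZIP1 and 893 ± 360.3 in 4tU-EV and a difference of 0.65 (limma adjusted p = 0.847, exact two-sided permutation p = 0.011). On 4tU-EV replicate 5 it was at 261, against 974 to 1146 on the other 4tU-EV arrays, and without that array the difference was 0.25. The ubiquitin ligase gene ATL8 had 267 ± 145 in 4tU-bZIP1 and 153 ± 38.1 in 4tU-EV and a difference of 0.68 (limma adjusted p = 0.847). It was highest, at 520, on 4tU-bZIP1 replicate 1, and without that array the difference was 0.46. AT3G15450 and ATL8 both overlapped between the groups.

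The other SnRK1 genes measured encode beta-type subunits, as AKINBETA1 does, and both had differences below 0 where that of AKINBETA1 was above it. AT4G16360, which encodes the beta2 subunit, had 19.5 ± 5.77 in 4tU-bZIP1 and 40.1 ± 20.5 in 4tU-EV, near the low end of the scale. Its log2 difference was -0.96 (limma adjusted p = 0.847, exact two-sided permutation p = 0.022). AT4G16360 was lowest, at 10.7, on 4tU-bZIP1 replicate 1 and highest, at 71.9, on 4tU-EV replicate 5. Without both arrays its difference was -0.55, and that of AKINBETA1 was 0.04. AT2G28060, which encodes the plant-type beta3 subunit, had 62.0 ± 15.1 in 4tU-bZIP1 and 90.3 ± 30.1 in 4tU-EV and a difference of -0.52 (limma adjusted p = 0.847). Without the same arrays it was -0.69. Neither passed, and the difference between subunits was not tested. The catalytic and gamma subunits were not analysed here.

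The family of DIN2 could be followed best, with 15 of the 21 other family 1 beta-glucosidases on the list measured, and none of them passed the threshold. Among the 10 that reached an intensity of 16 on at least 1 array, log2 differences ran from -0.87 to 0.73, with 3 above 0 and 7 below it, against 51.6% of all features above 0, and the median over all 15 was -0.03. BGLU46, whose enzyme acts on glucosides of lignin precursors, had 6861 ± 1122 in 4tU-bZIP1 and 5130.2 ± 459.9 in 4tU-EV, with no overlap between the groups. Its difference of 0.41 was smaller than that of DIN2 (limma adjusted p = 0.547). BGLU28 had 315 ± 131 in 4tU-bZIP1 and 204 ± 48.0 in 4tU-EV, and BGLU15 had 524 ± 148 in 4tU-bZIP1 and 704 ± 139 in 4tU-EV, with limma adjusted p = 0.847 for both.

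BGLU27 and BGLU16 are the next genes to DIN2 on 1 side in the RefSeq gene order, a look taken after the values were seen. BGLU16 is a family member outside the list and its counts above. BGLU27 had 2873 ± 441 in 4tU-bZIP1 and 3176 ± 293 in 4tU-EV, a log2 difference of -0.15. BGLU16 had 80.1 ± 34.0 in 4tU-bZIP1 and 117 ± 31.9 in 4tU-EV, a difference of -0.62. Both had limma adjusted p = 0.847 and overlapping groups, so the measured neighbors did not share the non-overlap of DIN2.

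The families of DIN10 and SEN1 were thinly covered. The only measured gene of 11 for raffinose and galactinol metabolism was AT3G56310, an alpha-galactosidase gene, with 411 ± 104 in 4tU-bZIP1 and 430.3 ± 141 in 4tU-EV (log2 difference -0.05, limma adjusted p = 0.985). No other raffinose synthase gene was analysed here. Of 6 other sulfurtransferase genes, 3 were measured, and the only one above an intensity of 16 was STR18, with 1617 ± 562 in 4tU-bZIP1 and 1629 ± 204 in 4tU-EV (log2 difference -0.07, limma adjusted p = 0.957).

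Starch and sucrose breakdown, the supply of sugar that these genes respond to, had 4 of 21 genes measured. The invertase gene AT1G62660 had 218 ± 77.0 in 4tU-bZIP1 and 151 ± 26.0 in 4tU-EV and a difference of 0.44 (limma adjusted p = 0.847). It was lowest, at 80.5, on 4tU-bZIP1 replicate 1, and without that array the difference was 0.70 (limma adjusted p = 0.398). The glucan enzyme gene DPE1 had 166 ± 159 in 4tU-bZIP1 and 90.2 ± 38.4 in 4tU-EV. PWD, which encodes a starch-phosphorylating dikinase, had 351 on 4tU-bZIP1 replicate 1 and at most 14.5 on each other array. Of the genes that sugar is known to raise, 2 of 8 were measured and only EXO was above 16, with 1265 ± 289.7 in 4tU-bZIP1 and 1109 ± 148 in 4tU-EV (limma adjusted p = 0.847).

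Of 15 senescence genes 4 were measured, and NAP was the one nearest the threshold. This NAC factor, which promotes leaf aging, is again named through the study's list. Its intensity was 2696 ± 380.1 in 4tU-bZIP1 and 1627 ± 294 in 4tU-EV, with no overlap between the groups. The log2 difference of 0.73 (limma adjusted p = 0.106, exact two-sided permutation p = 0.0022) was close to that of DIN2. The senescence regulators WRKY53 and WRKY6 had 2751 ± 559.9 and 3454 ± 319 in 4tU-bZIP1, against 3264 ± 451 and 3409 ± 389 in 4tU-EV. SAG101, a senescence-associated gene, had 639.7 ± 147 in 4tU-bZIP1 and 755 ± 138 in 4tU-EV. These 3 overlapped between the groups and had limma adjusted p values of 0.847 to 0.978.

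**Figure D4:**
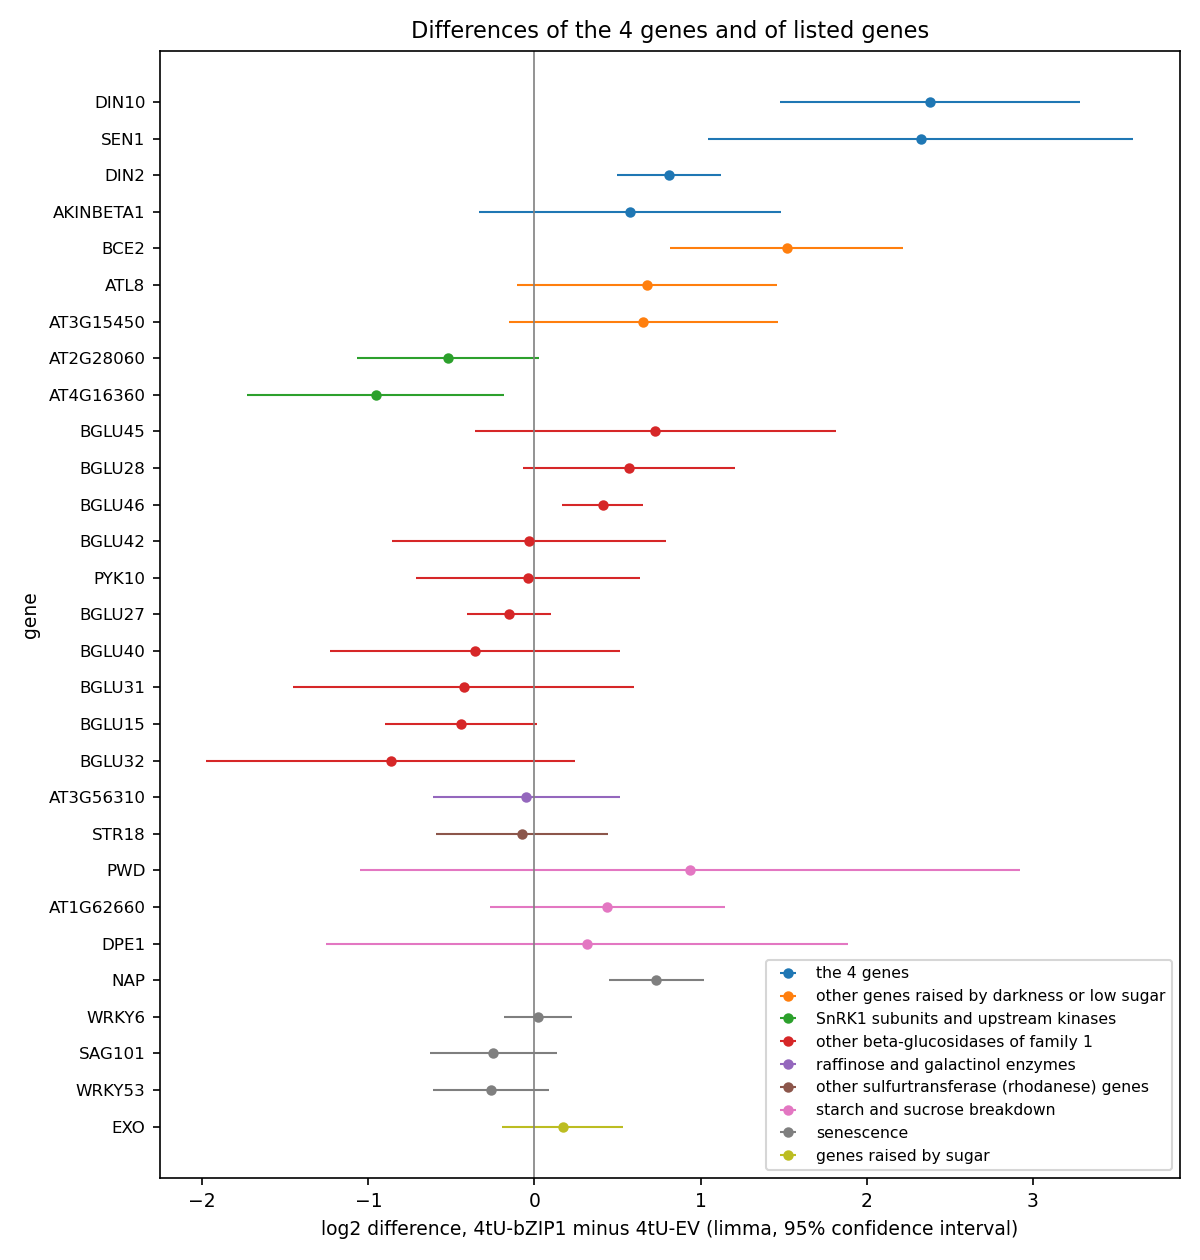
log2 difference of intensity (4tU-bZIP1 minus 4tU-EV) with its 95% confidence interval from limma for the 4 genes and for the 25 listed genes that reached an intensity of 16 on at least 1 array, colored by list and ordered within it. The intervals of DIN10, SEN1, DIN2, BCE2, BGLU46 and NAP lie above 0, that of AT4G16360 lies below 0, and all others cross it.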

How the data were processed

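The authors pulled down and amplified the labeled RNA, hybridized it to ATH1 arrays and normalized with GCRMA, whose version is not given in the sources used here. The deposited table holds an intensity on the linear scale for 22810 probe sets and 11 arrays, from 4.92 to 24570.3, and the number of arrays limits the precision. GCRMA shares information over arrays and compresses dim values towards a floor, so low intensities can understate fold changes. The effect of this on the differences given here was not tested. Groups came from the sample titles.

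Left out were 64 controls, 2307 probe sets with 1 value on all arrays, 448 with several genes and 330 unnamed ones whose suffix marks shared sequence. A single gene is paired with 13513 probe sets in the platform table, several genes with 503 and none with 8730, and 118 names came only from the probe and gene columns of the study's induced and repressed gene table. Its fold changes and p-values were not used. The probe set with the highest mean was taken per gene, which left 19525 features, 11885 with a name.

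No pseudocount was added before log2. limma 3.58.1 in R 4.3.3 (lmFit, eBayes, defaults) compared the groups, and its steps were tested on simulated data. Python 3.11.15 (numpy 2.4.6, pandas 2.3.3, scipy 1.17.1, matplotlib 3.10.9) served for exact permutation tests, correlations and plots. Named genes are the 4, up to 4 per list with the smallest p and the 5 most alike per measure, and listed genes under 16 on every array are only counted. A 1-way test after the methods, a trend and robust prior, array weights, a threshold of 0.05, centring, quantile normalization, a floor, a minimum mean, all or only named probe sets, a replicate block and leaving out arrays were the alternatives. The rank product of the methods was not run. The members and lists were chosen with earlier results of these data known. Sequences and bZIP1 itself were not analysed here.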

Additional observations from a re-analysis of the deposited data

Results flagged for a closer look

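In 3 cases a single array lay far from the rest of its group, by the gap to its nearest neighbor as a share of the group's range (Dixon's ratio). The measure marks about 1 in 20 groups by chance on 1 scale and more often here, since 8 gene and group pairs were examined on both the linear and the log2 scale. Each of the 3 was past its limit on only 1 of these. For DIN10 the log2 intensity of 4tU-EV replicate 5 (intensity 25.0, against 90.8 to 131 on the other 4 arrays) had a ratio of 0.779 (limit 0.71 for 5 arrays), against 0.621 on the linear scale. For SEN1 the intensity of 4tU-bZIP1 replicate 4 (1940.2, against 188 to 657 on the other 5) had a ratio of 0.732 (limit 0.625 for 6 arrays), against 0.464 on the log2 scale. For DIN2 the intensity of 4tU-bZIP1 replicate 1 (5003, against 2856 to 3544 on the other 5) had a ratio of 0.68 (limit 0.625 for 6 arrays), against 0.615 on the log2 scale. Without that array the log2 difference was 1.96 for DIN10, 1.94 for SEN1 and 0.70 for DIN2, and DIN10 and DIN2 were called by limma while SEN1 was not. Each array was picked from the gene's own values, and leaving it out narrows the spread of its group. These calls are therefore no independent evidence of a difference.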

How the results depend on the processing

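DIN10 was called in 10 of the 14 settings other than leaving out 1 array and lost its call in 4, the 1-way test on log2 values (2.38), an adjusted p under 0.05 (2.38), the replicate block (2.46, limma adjusted p = 0.335) and replicates 1 to 5 without the block (2.46, limma adjusted p = 0.184). DIN2 passed in 7 settings, the limma trend (0.81), array weights (0.73), quantile normalization (0.81), a floor of 16 (0.81), all probe sets (0.81), named probe sets only (0.81) and both doubted arrays left out (0.70), and in none of the other 7. SEN1 and AKINBETA1 were called in none. Leaving out both doubted arrays removes extremes of DIN10 and DIN2, so the calls in that setting are no independent evidence. With each array left out in turn the differences were 1.96 to 2.56 for DIN10, 1.94 to 2.61 for SEN1, 0.70 to 0.86 for DIN2 and 0.24 to 0.74 for AKINBETA1. The features called higher, 32 in all, numbered 17 by the 1-way test on linear values, 66 with array weights, 21 at 0.05, 18 for replicates 1 to 5 and 17 to 30 with an array left out, with 17 to 19 when the array was 4tU-EV replicate 2 or one of 4tU-bZIP1 replicates 2, 4, 5 and 6. The 4 called lower numbered 2 by the 1-way test on linear values, 27 with array weights, 7 with the floor, 1 at a minimum mean log2 of 5, 9 without both arrays and 1 (without 4tU-bZIP1 replicate 5) to 11 (without 4tU-EV replicate 5) with an array left out, and 2 without 4tU-bZIP1 replicate 1. With the replicate number as a block limma called 0 features in either direction, with 321 higher and 633 lower at an unadjusted p under 0.05 and a DIN2 difference of 0.86. The numbers do not pair the samples by the labels, same-numbered arrays had deviations correlated at 0.02 to 0.18, and 2 of 5 correlated best with their own number.

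Of the listed genes, BCE2 passed in 2 of the 14 settings, array weights and a minimum mean log2 of 5, and NAP in 4 of them and without 4tU-EV replicate 1. Without 4tU-bZIP1 replicate 1 the difference of PWD was 0.11, against 0.94 with all arrays, and that of WRKY53 -0.16, against -0.26, and the difference of EXO, 0.17 with all arrays, was 0.11 without 4tU-bZIP1 replicate 5 and 0.083 without replicate 6. Genes near 0 changed sign without passing in any setting. AT3G56310 was 0.091 with the replicate block and 0.091 for replicates 1 to 5 (-0.20 to 0.11 with an array left out), STR18 was 0.083 with array weights and 0.15 without both arrays (-0.22 to 0.090), WRKY6 was -0.0097 with array weights (-0.050 to 0.067) and DPE1 was -0.074 to 0.66. The cause was not tested. Values near the floor of the table limit what dim genes such as AT4G16360 can show.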

Other observations

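Exact ties between arrays occur in the table. The AKINBETA1 intensity of 69.9 on 4tU-bZIP1 replicate 3 and on 4tU-EV replicate 4 was the same number to the last digit given. Of 7000 features with a mean log2 of at least 5, 1646 (23.5%) had the same value on at least 2 arrays, and a pair of arrays shared 0.471% to 1.69% of values, so no array repeats another. Of the 16 genes next to the 4 in the RefSeq order, 2 on each side, 3 were measured and 0 passed the limma threshold, with 1 at an unadjusted p under 0.05. That gene, AT4G35750, lies near SEN1 and had 144 ± 52.6 in 4tU-bZIP1 and 277 ± 105 in 4tU-EV, a log2 difference of -0.91 (limma adjusted p = 0.847). EXPA7, a root hair marker and the only tissue marker measured, had 55.0 on 4tU-bZIP1 replicate 1 and at most 5.18 on each other array.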
